A study of Rattus norvegicus with 5 samples.

Results

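The genes described here encode the ligands and receptors of axon guidance. They were chosen by name, with earlier results of these data known, and the rule uses no measured value. It takes every gene whose name begins with Sema, Plxn, Epha, Ephb, Efna, Efnb, Slit1, Slit2, Slit3, Robo, Unc5 or Ntn followed by a digit, together with Dcc, Nrp1 and Nrp2. The rule took 70 of the 32883 genes in the count tables. They comprised 4 netrins, 5 netrin receptors, 3 slits and 4 genes named Robo, counted by name as slit receptors. Further members were 7 secreted and 13 membrane-bound semaphorins, 11 semaphorin receptors (plexins and neuropilins), 8 ephrins and 13 Eph receptors. Unc50 and Unc5cl also matched the prefix, but neither is a netrin receptor, and they were kept apart.

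Single nuclei were sequenced from punches of the ventral tegmental area (VTA), the midbrain region that holds the dopamine neurons projecting to the striatum and cortex, of 5 adult male Sprague-Dawley rats. The bilateral punches of a rat were combined into 1 library, so each library was 1 animal. All 5 rats belonged to 1 group, which the labels call saline and a figure legend of the study calls drug-naïve, so no treatment was compared. The comparisons were between classes of nuclei of the same rats.

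Guidance cues are secreted or membrane-bound proteins that steer growing axons by attraction or repulsion. Netrins act through Dcc and the Unc5 receptors, slits through the Robo receptors, semaphorins through plexins with or without neuropilins, and ephrins, which sit on the membrane of a neighbouring cell, through the Eph receptors. In the adult brain the same genes remain expressed in neurons, where several act at synapses, and in glia and blood vessels, and netrin, slit and semaphorin signals are known for laying out the midbrain dopamine pathway during development.

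Barcodes with at least 1000 UMIs, more than 200 and fewer than 5000 genes and less than 5% mitochondrial UMIs were taken as nuclei, which left 22084 nuclei, between 1813 and 9336 per rat, with a median depth of 1606 to 3526 UMIs. Any 2 libraries shared at most 16 nuclear barcodes. Clustering without the 70 genes gave 8636 oligodendrocytes, 4703 neurons, 1104 astrocytes, 700 OPCs (precursor cells of oligodendrocytes), 608 microglia and 421 vascular nuclei. Neurons were split into 972 dopaminergic-like, 2412 GABAergic-like and 906 nuclei of 4 sub-clusters chosen for a high summed level of the glutamate transporters Slc17a6 and Slc17a7 (1.57 to 2.95 UMIs per 10000). The last are called Slc17a6/Slc17a7 neurons and not glutamatergic, because too few markers of any neuron type were raised in them. In 2 of these sub-clusters, of 502 and 98 nuclei, the dopaminergic list scored highest of the neuron lists, with 2 and 1 of its 8 markers raised, and Slc17a7 was among the leading genes of 1, of 113 nuclei. The 8 dopaminergic markers together reached 26.9 to 36.1 UMIs per 10000 in dopaminergic-like nuclei and 0.867 to 2.87 in GABAergic-like nuclei. The libraries were unequal: rat 1 gave 146 neurons, and the neurons of rat 3 had a median of 1617 UMIs, whereas the medians of rats 1, 2, 4 and 5 lay between 6910 and 9900. Rat 3 had the lowest neuronal level for 19 of the 22 members with a mean neuronal level of 1 or more. A class entered a rat's sum with 20 nuclei or more, which left rat 1 out for dopaminergic-like neurons and rat 3 out for OPCs and vascular nuclei.

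A level is given as UMIs per 10000 UMIs of a class in a rat, as mean ± SD over rats. It is not corrected for gene length or intron content, so levels are compared between classes for 1 gene and not between genes. Dcc contributed the most UMIs of all members in neurons and OPCs, Robo2 in dopaminergic-like and Slc17a6/Slc17a7 neurons, Unc5c in oligodendrocytes, Robo1 in astrocytes, Slit2 in microglia and Plxna2 in vascular nuclei.

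**Figure D1:**
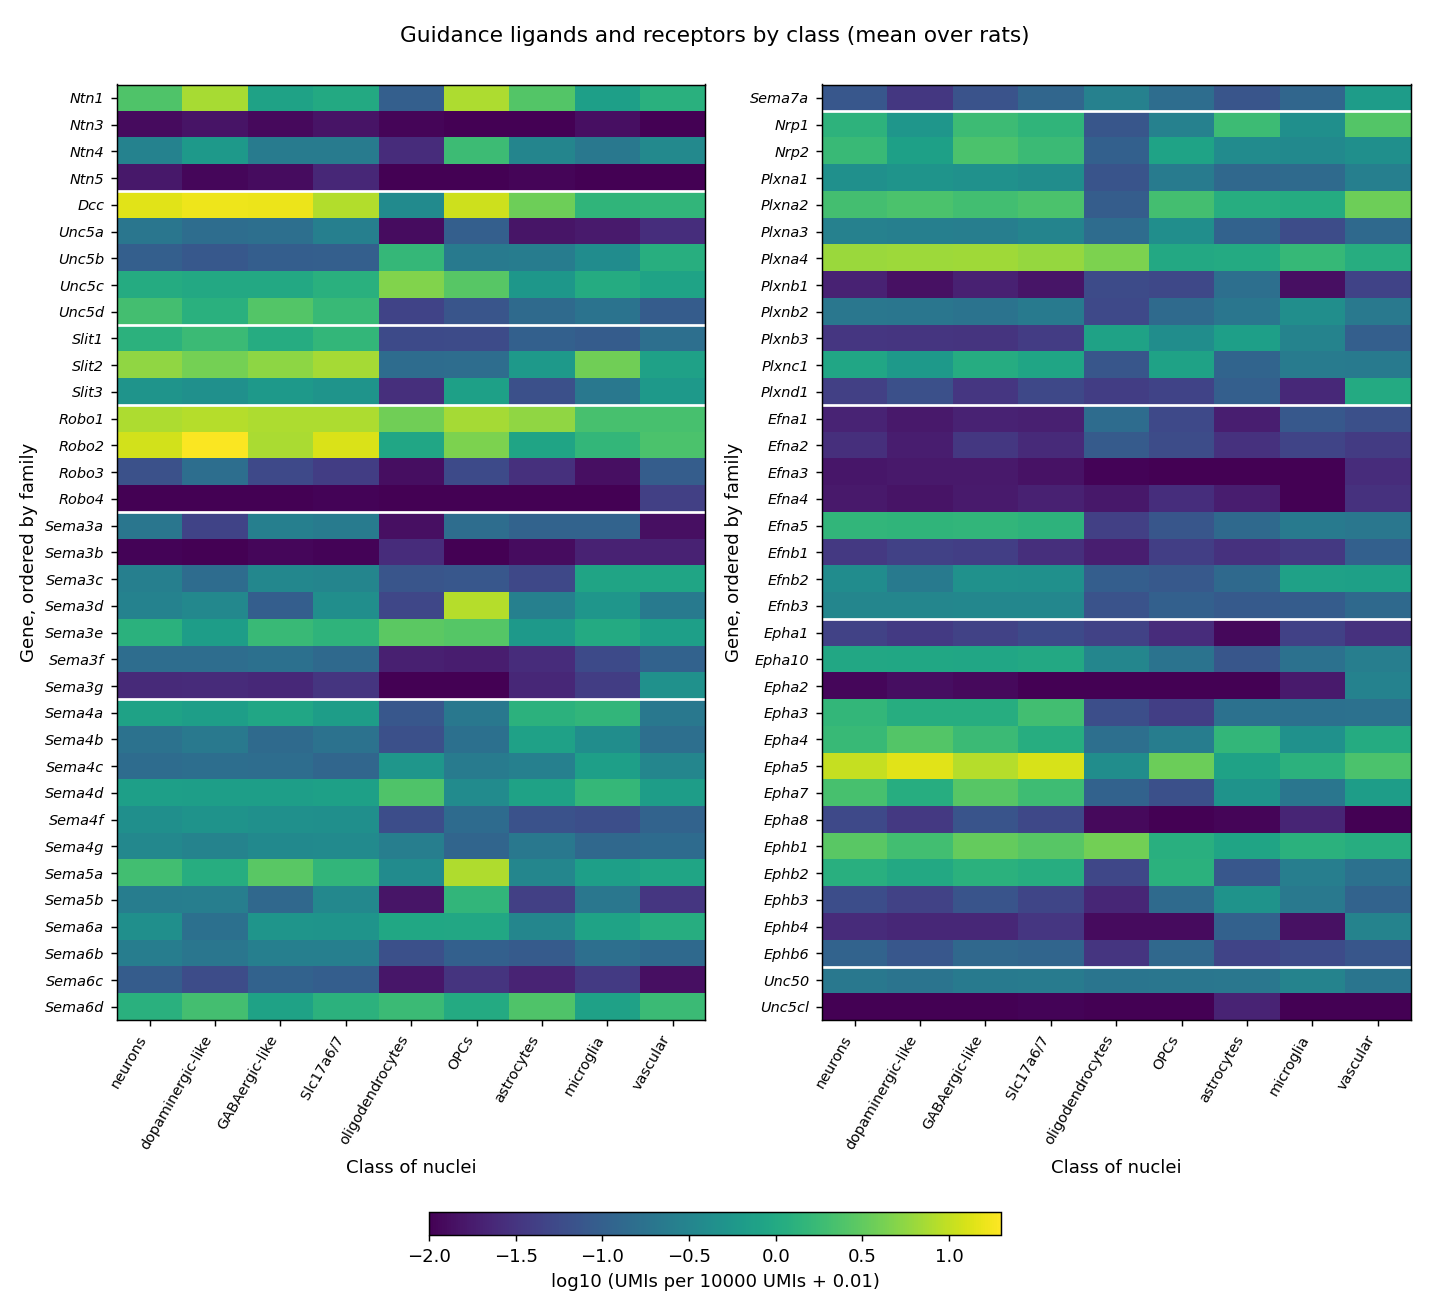
Mean level of each of the 70 genes (rows, ordered by family, white lines between families) in the 6 major classes and the 3 neuron classes (columns). Colour is log10 of UMIs per 10000 UMIs plus 0.01. Of the 70 genes, 27 had their highest mean level in neurons, 14 in vascular nuclei, 9 each in OPCs and oligodendrocytes, 6 in microglia and 5 in astrocytes.

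Each family was spread over several classes. Of the 70 genes, 27 had their highest mean level in neurons, 14 in vascular nuclei, 9 in OPCs, 9 in oligodendrocytes, 6 in microglia and 5 in astrocytes. Of the 13 Eph receptors 7 were highest in neurons, and of the 11 plexins and neuropilins 4 were highest in neurons and 3 in vascular nuclei. Of the 8 ephrins 2 were highest in neurons and 3 in vascular nuclei. The latter, Efna3, Efna4 and Efnb1, had only 1, 2 and 19 UMIs there. Such counts were not made over all genes. Several of these first places rest on few UMIs, such as Ntn3 with 31 and Robo4 with 4 UMIs in all nuclei, and neighbouring classes often overlapped: Sema3e had a level of 2.94 ± 0.523 in oligodendrocytes and 2.67 ± 0.708 in OPCs, and Plxnb3 0.794 ± 0.132 in oligodendrocytes and 0.720 ± 0.165 in astrocytes.

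Sema3d, Plxnb3 and Plxnd1 had the largest rise of all members in OPCs against oligodendrocytes, oligodendrocytes against neurons and vascular nuclei against neurons. For that reason the 250 bases before each gene start are shown 5′ to 3′, from the RefSeq promoter table of rat build GRCr8. Capitals mark a GC box (GGGCGG or its reverse CCGCCC) or the E-box CACCTG (or CAGGTG).
Sema3d, a secreted semaphorin, highest in OPCs, chr4:23460972-23461221, minus strand: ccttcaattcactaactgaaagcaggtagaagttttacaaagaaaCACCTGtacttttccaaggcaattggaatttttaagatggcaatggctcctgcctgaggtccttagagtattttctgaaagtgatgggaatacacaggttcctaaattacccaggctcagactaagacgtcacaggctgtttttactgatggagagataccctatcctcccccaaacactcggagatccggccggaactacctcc
Plxnb3, a plexin, highest in oligodendrocytes, chrX:156646624-156646873, plus strand: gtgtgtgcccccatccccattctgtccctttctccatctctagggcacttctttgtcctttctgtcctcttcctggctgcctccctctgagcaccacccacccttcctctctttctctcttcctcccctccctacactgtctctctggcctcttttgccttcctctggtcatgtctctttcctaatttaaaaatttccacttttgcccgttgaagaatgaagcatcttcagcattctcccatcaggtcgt
Plxnd1, a plexin, highest in vascular nuclei, chr4:150715188-150715437, minus strand: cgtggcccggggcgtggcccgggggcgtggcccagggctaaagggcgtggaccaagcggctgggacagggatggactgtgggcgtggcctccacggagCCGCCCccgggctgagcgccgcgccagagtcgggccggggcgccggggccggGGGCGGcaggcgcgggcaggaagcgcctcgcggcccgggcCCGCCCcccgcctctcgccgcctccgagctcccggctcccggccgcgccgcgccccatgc
The Sema3d window had 44.8% G and C, 0 GC boxes and 1 E-box, the Plxnb3 window had 50.8% G and C and neither motif, and the Plxnd1 window had 83.2% G and C and 3 GC boxes. Of the 70 genes 55 matched the table, and a GC box was present in 31 of them (56.4%), against 30.5% of all 33469 promoters. The median G and C content was 62.8% for the members and 51.2% for all promoters. TATAAA, in either direction, was present in 0 of the 55 and in 12.9% of all promoters. The E-box was present in 8 of the 55 and in 15.9% of all promoters. A match is a description of letters and not a binding site.

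Each comparison below used UMI counts summed per rat and class, with the rat as a block, in the edgeR quasi-likelihood test, with p-values adjusted by Benjamini-Hochberg over all genes tested. Of the 70 genes, 54 passed the filter on low counts in the fit of the 6 major classes and 52 in the fit of the neuron classes. The genes outside both fits were Efna2, Efna3, Efna4, Efnb1, Epha1, Epha2, Ntn3, Ntn5, Plxnb1, Robo4, Sema3b and Unc5cl. A gene that passed through the class where it is high had to differ, so the counts describe the genes and are set beside those of all genes tested. That background also holds the genes that formed the classes.

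Neurons differed from oligodendrocytes by lower levels of most guidance genes in the glia. Of the 54 members tested 39 (72.2%) were lower in oligodendrocytes, against 34.6% of all 11213 genes, and 11 (20.4%) were higher, against 35.3%. The median log2 fold change was -2.37 for the members and 0.04 for all genes. Dcc, the attractive netrin receptor, had neuronal levels of 9.164, 17.955, 8.953, 18.113 and 16.083 in rats 1 to 5 and oligodendrocyte levels of 0.240, 0.319, 0.919, 0.184 and 0.188. The ranges were far apart, with a log2 fold change of -5.44 ± 0.45 (adjusted p = 2.6e-12), where the error is the SE here and for every fold change that follows. The other large falls were in Efna5, an ephrin ligand (-5.98 ± 0.31), Unc5d (-5.39 ± 0.28), Slit2 (-5.33 ± 0.27) and Unc5a (-5.25 ± 0.36), each lower in 5 of 5 rats. All 3 slits, both netrins tested and 8 of 9 Eph receptors were lower in oligodendrocytes. Lower in 5 of 5 rats were also Sema3a (-4.90 ± 0.51), Slit3 (-4.82 ± 0.24), Nrp1 (-4.80 ± 0.28), Epha5 (-4.64 ± 0.30), Ntn1 (-4.55 ± 0.26), Nrp2 (-4.21 ± 0.24), Robo2 (-3.53 ± 0.33), Epha4 (-3.36 ± 0.21), Sema5a (-2.24 ± 0.27) and Efnb2 (-2.10 ± 0.25). Robo1 was less different, at 3.83 ± 1.53 in oligodendrocytes and 7.87 ± 1.65 in neurons (log2 fold change -0.87 ± 0.27, adjusted p = 0.0058), and its call was lost after subtraction of free RNA (-1.10, adjusted p = 0.20).

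The 11 genes that were higher in oligodendrocytes included 2 of the 5 netrin receptors. Unc5b, which mediates repulsion by netrin, had oligodendrocyte levels of 2.47, 1.66, 0.412, 1.62 and 1.78 in rats 1 to 5, and neuronal levels of 0.0370 to 0.118. Rat 3 was the lowest in both classes, and its oligodendrocytes still exceeded the neurons of every rat. The log2 fold change was 4.35 ± 0.18 (adjusted p = 5.6e-19). Unc5c, a related repulsive receptor, was at 4.72 ± 0.848 in oligodendrocytes and 1.07 ± 0.224 in neurons (log2 fold change 2.36 ± 0.22, adjusted p = 3.4e-11). Plxnb3, a receptor for Sema5a, was at 0.794 ± 0.132 and 0.0236 ± 0.00994 (log2 fold change 5.14 ± 0.25, adjusted p = 7.9e-18). The transmembrane semaphorins Sema4c and Sema4d rose by 2.19 ± 0.16 and 1.96 ± 0.14 on the log2 scale. Sema3e, a secreted ligand of Plxnd1, was 2.83-fold higher (1.5005 ± 0.24 on the log2 scale). Sema6d was 0.67 ± 0.17 higher (adjusted p = 0.0010), a call that was lost after subtraction of free RNA (0.46, adjusted p = 0.31). Plxna4 did not pass the test (log2 fold change -0.41 ± 0.23, adjusted p = 0.10), with oligodendrocyte levels from 1.17 in rat 3 to 8.02 in rat 5. The nuclei of 5 rats did not share the same oligodendrocyte clusters evenly: 1 cluster of 375 held 368 nuclei of rat 1, and 1 of 203 held nuclei of rat 3 alone.

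**Figure D2:**
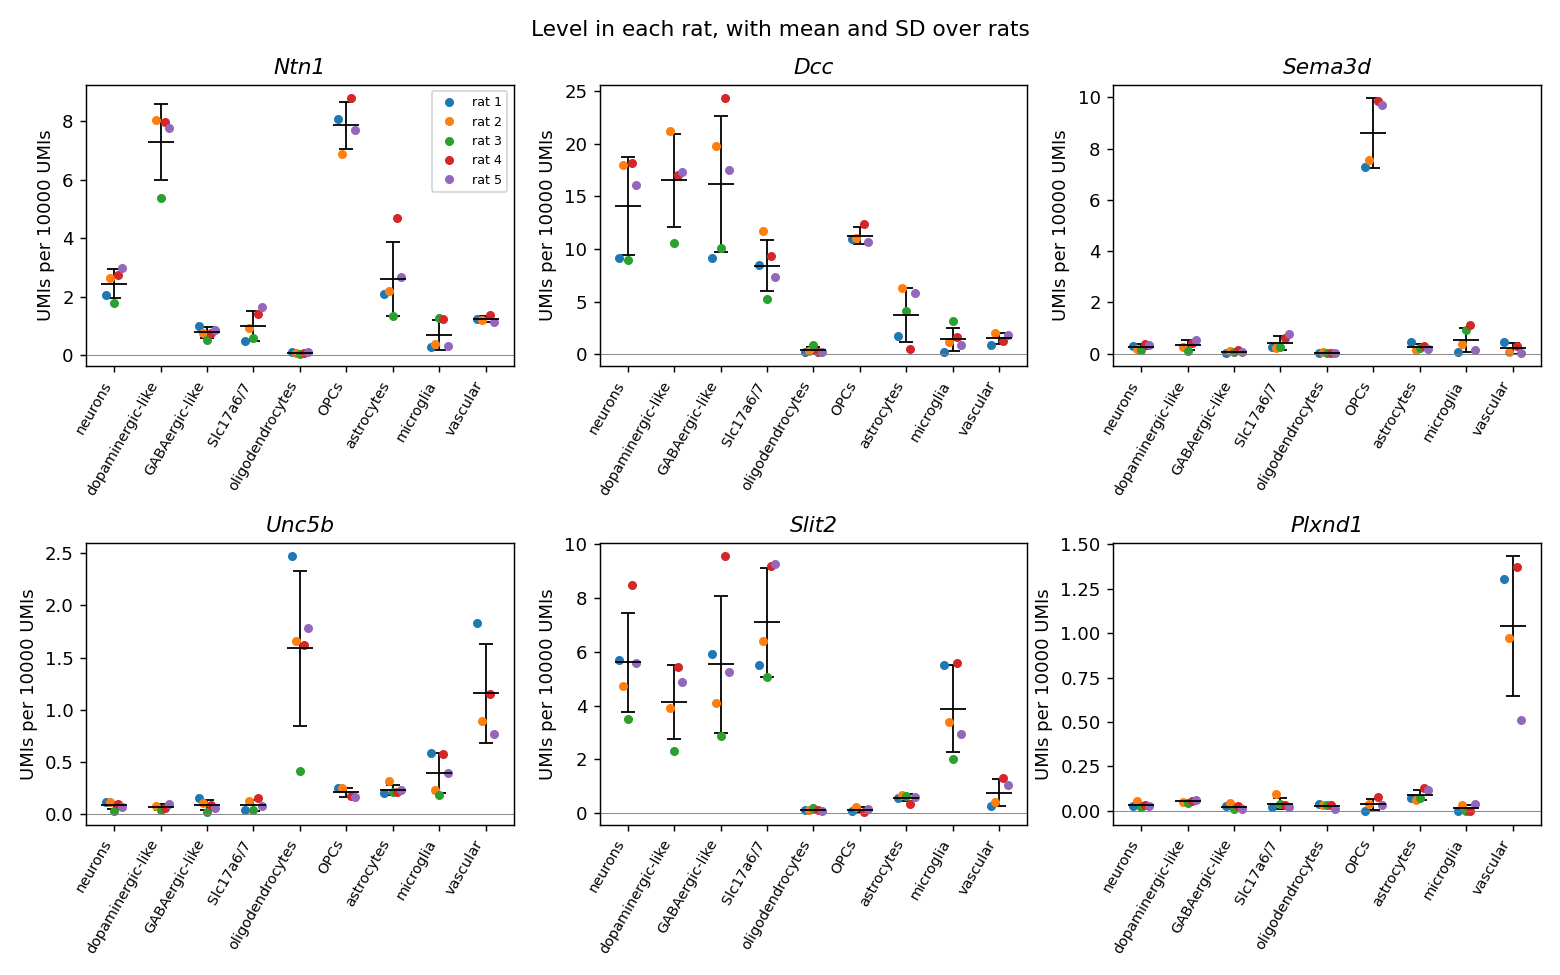
Level of 6 genes in each rat (coloured points), in UMIs per 10000 UMIs, with the mean (bar) and SD (whiskers) over rats, in 9 classes. Ntn1 is high in dopaminergic-like neurons and OPCs, Dcc in neuron classes and OPCs, Sema3d in OPCs, Unc5b in oligodendrocytes and vascular nuclei, Slit2 in neurons and microglia, and Plxnd1 in vascular nuclei.

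OPCs, the dividing cells that give rise to oligodendrocytes, differed from neurons in both directions, with more members lower than higher. Of the 54 members 16 (29.6%) were higher in OPCs than in neurons, against 19.8% of all genes, and 26 (48.15%) were lower, against 21.7%. The median log2 fold change was -0.71 for the members and -0.03 for all genes. Sema3d had OPC levels of 7.28, 7.57, 9.87 and 9.71 in rats 1, 2, 4 and 5, and neuronal levels of 0.148 to 0.378 in all 5 rats. The log2 fold change was 4.95 ± 0.29 (adjusted p = 6.7e-15). After thinning every nucleus to 1000 UMIs, 50.2% ± 12.4 of OPCs had a Sema3d UMI (84.6% unthinned, 4 rats), against 0.489% of oligodendrocytes (1.23% unthinned), with median depths of 3590 and 2851 UMIs. The membrane semaphorins Sema5a and Sema5b, which can repel axons, were at 8.08 ± 0.521 and 1.47 ± 0.449 in OPCs, and rose by 1.98 ± 0.26 and 2.51 ± 0.23. By family, 2 secreted semaphorins were higher and 3 lower, 5 membrane-bound semaphorins were higher and 5 lower, 1 slit was higher and 2 lower, and 1 ephrin was higher and 3 lower. Both netrins tested were higher in OPCs than in neurons: Ntn1, the secreted ligand of Dcc, by 1.63 ± 0.22 (adjusted p = 3.6e-07) and Ntn4, a laminin-related netrin, by 2.86 ± 0.24 (adjusted p = 1.7e-11). Ntn1 was at 8.06, 6.87, 8.80 and 7.69 in OPCs of rats 1, 2, 4 and 5, above the neuronal range of 1.79 to 2.99. That range is over all neurons. Dopaminergic-like neurons alone had a mean Ntn1 level of 7.29, near the OPC mean of 7.85. Plxnb3 also rose, by 3.94 ± 0.32. The repulsive netrin receptors Unc5c and Unc5b and the ligand Sema3e rose by 1.38 ± 0.23, 1.07 ± 0.27 and 1.34 ± 0.27 in 4 of 4 rats, and the Unc5b call was lost after subtraction of free RNA (1.26, adjusted p = 0.058). Plxnb3, Unc5b, Unc5c and Sema3e were also high in oligodendrocytes, whose 7 markers together stood at 16.8 to 61.1 UMIs per 10000 in OPCs against 6.88 to 26.1 in neurons. The share of free RNA in OPCs was estimated at 9.15% to 32.4%. After its subtraction the OPC levels were 0.366 ± 0.0367 for Plxnb3, 0.141 ± 0.0300 for Unc5b, 3.12 ± 0.512 for Unc5c and 3.003 ± 0.653 for Sema3e, and Plxnb3, Unc5c and Sema3e still passed the test. Every level after subtraction is per 10000 of the UMIs that remained, so a gene rare in free RNA rises by the arithmetic alone.

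Dcc did not differ between OPCs and neurons by this test, at 11.3 ± 0.784 in OPCs and 14.1 ± 4.63 in neurons (log2 fold change -0.16 ± 0.38, adjusted p = 0.79), and Robo1 likewise (-0.25 ± 0.30, adjusted p = 0.55). The 7 neuron markers together stood at 13.3 to 15.8 UMIs per 10000 in OPCs, at 43.5 to 69.2 in neurons and at 2.78 to 6.60 in oligodendrocytes. Other members that were high in neurons were near 0 in OPCs. Slit2 was at 0.141 ± 0.0830 (log2 fold change -5.23 ± 0.34), Epha3 at 0.0307 (-5.39 ± 0.45), Epha7 at 0.0533 (-5.12 ± 0.34) and Unc5d at 0.0650 ± 0.0247 (-5.00 ± 0.39). Efna5 (-4.85 ± 0.42), Plxna4 (-2.92 ± 0.28), Epha4 (-2.43 ± 0.26), Nrp1 (-2.37 ± 0.31) and Efnb2 (-2.26 ± 0.42) were lower in 4 of 4 rats. Sema6d (-0.49 ± 0.21, adjusted p = 0.059) and Sema3a (-0.45 ± 0.48, adjusted p = 0.48) did not pass. Sema3g had 0 UMIs in OPCs, which allows up to 0.0109 per 10000, and 42 UMIs in neurons. Sema3f had 3 UMIs in OPCs, a pooled level of 0.0109 with an exact 95% Poisson interval of 0.00225 to 0.0318. Slit3, at 0.744 ± 0.191 in OPCs, passed the test against neurons (0.52 ± 0.20, adjusted p = 0.036) and no longer passed without rat 4 (0.23, adjusted p = 0.51), without rat 5 (adjusted p = 0.078), without the filter (0.11), in DESeq2 (0.13) or after subtraction of free RNA (0.33). With doublets kept the fold change was 0.19 (adjusted p = 0.54), and with nuclei typed by their own markers 0.21 (adjusted p = 0.53). Unc5a was lower in OPCs (-1.23 ± 0.36, adjusted p = 0.0059), with an adjusted p of 0.053 without rat 5 and 0.056 in DESeq2. Robo2, Epha5 and Nrp2 were lower in OPCs as well (-1.36 ± 0.33, -1.42 ± 0.28 and -1.15 ± 0.24), and these 3 calls were lost after subtraction of free RNA with fold changes of -1.38, -1.44 and -1.15 (adjusted p = 0.29, 0.25 and 0.075).

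Within the oligodendrocyte lineage, more members were higher in OPCs than in oligodendrocytes. Of the 54 members 24 (44.4%) were higher in OPCs than in oligodendrocytes, against 23.2% of all genes, and 11 (20.4%) were lower, against 23.1%. The median was 0.38 for the members and -0.10 for all genes. The 5 largest rises were Sema3d (7.42 ± 0.34), Sema5b (7.34 ± 0.33), Ntn4 (7.12 ± 0.33), Ntn1 (6.18 ± 0.28) and Slit3 (5.33 ± 0.27), each higher in 4 of 4 rats, with adjusted p from 8.1e-17 to 5.7e-18. Dcc rose by 5.29 ± 0.46 (adjusted p = 2.1e-11). Of the 10 plexins and neuropilins tested 7 were higher in OPCs, among them Plxna2 by 4.37 ± 0.24, Nrp2 by 3.06 ± 0.28 and Nrp1 by 2.43 ± 0.40. Sema3a (4.44 ± 0.68), Sema5a (4.22 ± 0.29), Unc5a (4.02 ± 0.54, 24 UMIs in OPCs), Epha5 (3.22 ± 0.30) and Robo2 (2.17 ± 0.34) were higher in OPCs of 4 of 4 rats. Epha4 was higher in 3 of 4 (0.93 ± 0.30, adjusted p = 0.012), and its adjusted p was 0.070 without rat 4, 0.13 without rat 5 and 0.15 when nuclei were typed by their own markers. Robo1 (0.63 ± 0.29), Efna5 (1.12 ± 0.71), Unc5d (0.39 ± 0.57), Slit2 (0.10 ± 0.40), Efnb2 (-0.16 ± 0.50) and Sema3e (-0.16 ± 0.26) did not pass the test. The genes that were higher in oligodendrocytes were Unc5b (-3.27 ± 0.22), Sema4d (-2.64 ± 0.19), Plxna4 (-2.51 ± 0.28), Efna1, an ephrin (-2.07 ± 0.39), Ephb1 (-1.96 ± 0.25), Sema6d (-1.16 ± 0.21), Sema4c, Sema4g, Sema7a, Plxnb3 and Unc5c. The netrin receptor genes were divided, Dcc and Unc5a with higher levels in OPCs and Unc5b and Unc5c with higher levels in oligodendrocytes. The Unc5c difference (-0.98 ± 0.23, adjusted p = 7.4e-04) was -0.81 after subtraction of free RNA and no longer passed (adjusted p = 0.23). A further cluster of 328 nuclei, in which OPC and oligodendrocyte markers were both raised, was left out of all classes.

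Astrocytes had 32 of the 54 members (59.3%) lower than neurons, against 28.8% of all genes, and 9 (16.7%) higher, against 29.7%. The median was -1.55 for the members and 0.02 for all genes. The members that rose most with the same sign in every rat were Plxnb3 (4.78 ± 0.27), Ephb4 (2.81 ± 0.40), Sema4b (2.15 ± 0.20), Unc5b (1.42 ± 0.23) and Plxnd1 (1.27 ± 0.39), of which Plxnd1 rested on 35 UMIs and had an adjusted p of 0.059 without rat 4 and 0.061 without rat 5. The 7 oligodendrocyte markers together stood at 33.1 to 82.9 UMIs per 10000 in astrocytes against 6.88 to 26.1 in neurons, and the share of free RNA was estimated at 18.2% to 40.4%. Plxnb3 and Unc5b were also high in oligodendrocytes. After subtraction of free RNA Plxnb3 was at 0.764 ± 0.172 and Unc5b at 0.121 ± 0.0855 in astrocytes, and both still passed the test. Ephb3, an Eph receptor, rose by 3.34 ± 0.30 and was at 0.695, 0.456, 0, 0.689 and 0.591 in rats 1 to 5. Sema6d, a ligand of Plxna1, was at 2.48 ± 0.676 in astrocytes and 1.25 ± 0.276 in neurons (0.99 ± 0.18, adjusted p = 2.0e-05). Ntn1 (2.60 ± 1.27), Nrp1 (1.80 ± 0.741), Epha4 (1.502 ± 0.386) and Robo1 (5.56 ± 1.69) did not differ from neurons past the threshold (adjusted p = 0.76, 0.069, 0.81 and 0.12). Dcc was at 1.72, 6.33, 4.14, 0.472 and 5.82 in rats 1 to 5, a wide spread, and below the neurons of the same rat each time (-2.02 ± 0.38, adjusted p = 3.2e-05). The fold change was -2.50 after subtraction of free RNA and no longer passed (adjusted p = 0.075), with a Dcc level of 0 in the lowest rat and 8.06 in the highest. The 3 slits and 4 of the 5 netrin receptors were lower in astrocytes, Unc5d with a log2 fold change of -4.74 ± 0.35, while Unc5a was seen in 3 UMIs, a pooled level of 0.00709 (exact 95% Poisson interval 0.00146 to 0.0207). After Unc5d and Unc5a, the largest falls with the same sign in every rat were in Slit1 (-4.14 ± 0.24) and in the Eph receptors Ephb2 (-4.05 ± 0.32) and Epha10 (-3.95 ± 0.36). Robo2 (-3.93 ± 0.36), Epha5 (-3.88 ± 0.30), Efna5 (-3.86 ± 0.34), Slit3 (-3.51 ± 0.31), Slit2 (-3.23 ± 0.26), Sema5a (-2.64 ± 0.31), Plxna4 (-2.63 ± 0.26), Nrp2 (-2.26 ± 0.25) and Efnb2 (-2.22 ± 0.36) were each lower in 5 of 5 rats. Sema3e (-1.86 ± 0.32), Sema3a (-1.71 ± 0.51) and Unc5c (-1.21 ± 0.26) were lower in 4 of 5. The adjusted p of Sema3a was 0.062 without rat 5 and after subtraction of free RNA, and that of Unc5c was 0.11 with doublets kept.

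Microglia, the resident macrophages of the brain, had 32 of the 54 members (59.3%) lower than neurons, against 29.3% of all genes. Another 13 (24.1%) were higher, against 29.4%. The median was -1.42 for the members and 0.01 for all genes. Among the slits, Slit1 and Slit3 were lower in microglia (-4.30 ± 0.31 and -1.65 ± 0.29), and Slit2 was nearer to its neuronal level. Slit2 had microglial levels of 5.522, 3.375, 2.003, 5.595 and 2.952 in rats 1 to 5, and neuronal levels of 5.69, 4.73, 3.51, 8.47 and 5.59. Microglia were below neurons in 5 of 5 rats (-0.66 ± 0.22, adjusted p = 0.013), but the ranges overlapped, and the adjusted p was 0.086 without rat 5, 0.11 in DESeq2, 0.097 with doublets kept, 0.47 after subtraction of free RNA (-0.54 on the log2 scale) and 0.77 when nuclei were typed by their own markers (-0.12). In the other glia Slit2 was at 0.136 ± 0.0334 in oligodendrocytes, 0.141 ± 0.0830 in OPCs and 0.576 ± 0.126 in astrocytes, and after subtraction of free RNA at 0.0282, 0.00444 (1 UMI) and 0.393. A Slit2 UMI was found in 26.0% of microglia thinned to 1000 UMIs (41.6% unthinned) and in 1.25% of oligodendrocytes (4.34% unthinned), with median depths of 2068 and 2851 UMIs. Barcodes with fewer than 100 UMIs, which hold part of the free RNA, had a Slit2 level of 1.08 and a Dcc level of 2.27. Dcc was at 1.42 ± 1.11 in microglia and 14.1 ± 4.63 in neurons (-3.60 ± 0.43). Subtraction of free RNA gave a Slit2 level of 5.35 ± 2.41 and a Dcc level of 0.731 ± 1.63 in microglia, per 10000 of the UMIs that remained. The share of free RNA was estimated at 28.2% to 50% in microglia, where 50% was the cap. In rats 1, 2 and 5 the estimate was cut to the cap, so part of the free RNA can remain there after subtraction. The members that rose most in every rat were Plxnb3 (3.15 ± 0.42), Sema4c (2.32 ± 0.20), Unc5b (1.96 ± 0.27), Sema3c (1.67 ± 0.27) and Sema4d (0.89 ± 0.17). Sema3c stood at 0.824 in microglia and at 0.868 ± 0.325 in vascular nuclei, where it was highest. The 7 oligodendrocyte markers together stood at 71.2 to 119 UMIs per 10000 in microglia against 6.88 to 26.1 in neurons, and Plxnb3, Unc5b, Sema4c and Sema4d were also high in oligodendrocytes. Barcodes with fewer than 100 UMIs had levels of 0.594 for Plxnb3, 0.583 for Unc5b, 0.328 for Sema4c and 1.64 for Sema4d. Subtraction of free RNA lowered the microglial level of Plxnb3 from 0.293 ± 0.201 to 0.155 ± 0.298, on 8 UMIs and with 0 in the lowest rat, and that of Unc5b from 0.396 ± 0.190 to 0.184 ± 0.109, on 17 UMIs. Plxnb3, Unc5b and Sema4c still passed the test after the subtraction (adjusted p = 0.0029, 0.035 and 1.1e-05). The Sema4d call was lost after it (adjusted p = 0.28) and when nuclei were typed by their own markers (0.40 on the log2 scale, adjusted p = 0.057).

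The largest falls in microglia, beside Slit1, were in Epha3 (-4.49 ± 0.44), Unc5d (-4.45 ± 0.40) and Epha7 (-4.31 ± 0.33), while Unc5a was seen in 2 UMIs, a pooled level of 0.0123 (exact 95% Poisson interval 0.00149 to 0.0446). Robo2 (-3.36 ± 0.36), Efna5 (-3.35 ± 0.38), Epha5 (-3.31 ± 0.31), Nrp2 (-2.46 ± 0.29), Epha4 (-2.41 ± 0.27), Robo1 (-2.19 ± 0.32), Plxna4 (-2.17 ± 0.27), Nrp1 (-2.09 ± 0.32), Ntn1 (-2.05 ± 0.27) and Sema5a (-1.50 ± 0.31) were lower in 5 of 5 rats. Sema6d was lower in 4 of 5 (-0.97 ± 0.23), and Sema3a, with 6 UMIs in microglia, in 3 of 5 (-2.57 ± 0.75), with an adjusted p of 0.080 without rat 2 and 0.054 after subtraction of free RNA. Efnb2, a membrane-bound ephrin, was higher in 4 of 5 (1.06 ± 0.27, adjusted p = 0.0011). Unc5c (-0.13 ± 0.26, adjusted p = 0.68) and Sema3e (-0.58 ± 0.30, adjusted p = 0.099) did not pass the test.

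Vascular nuclei had 29 of the 54 members (53.7%) lower than neurons, against 28% of all genes, and 12 (22.2%) higher, against 28.3%. The median was -1.12 for the members and -0.01 for all genes. The class joined endothelial nuclei with pericytes and fibroblasts, whose markers together stood at 35.9 to 71.0 and 30.7 to 55.8 UMIs per 10000. Some of the genes that rose are known from endothelium, but the sums do not tell which of these nuclei held them. Plxnd1, an endothelial semaphorin receptor, had levels of 1.31, 0.975, 1.37 and 0.510 in vascular nuclei of rats 1, 2, 4 and 5, and 0.0222 to 0.0541 in neurons (log2 fold change 4.56 ± 0.32, adjusted p = 4.3e-13). Sema3g, an endothelial class 3 semaphorin, had 54 UMIs in vascular nuclei and a level of 0.461 ± 0.167 (4.50 ± 0.45), with 0 UMIs in oligodendrocytes, which allows up to 0.00107 per 10000. Ephb4, the receptor of Efnb2 that marks veins, was at 0.291 ± 0.112 on 34 UMIs (4.17 ± 0.44), and Efnb2, which marks arteries, at 0.740 (0.78 ± 0.32, adjusted p = 0.040). The Efnb2 level was not particular to vascular nuclei, as microglia stood at 0.772 ± 0.252. The vascular Efnb2 call was lost without rat 1, 4 or 5 (adjusted p 0.28, 0.059 and 0.12). Unc5b rose by 3.22 ± 0.24 and Sema7a by 2.92 ± 0.33. Both were also higher in oligodendrocytes than in neurons, at 1.59 ± 0.743 and 0.274 ± 0.161, and the 7 oligodendrocyte markers together stood at 51.2 to 117 UMIs per 10000 in vascular nuclei. The share of free RNA in vascular nuclei was estimated at 37.5% to the cap of 50%. In rats 2 and 5 the estimate was cut to the cap, so part of the free RNA can remain there. After its subtraction the vascular levels were 1.44 ± 0.712 for Unc5b, 0.988 ± 0.481 for Sema7a, 1.70 ± 0.577 for Plxnd1, 0.757 ± 0.227 for Sema3g and 0.480 ± 0.190 for Ephb4, and all 5 still passed the test. Before it, Plxnd1, Sema3g and Ephb4 reached at most 0.0895, 0.0301 and 0.0954 in any other major class. The filter on low counts thus took them in through vascular nuclei, and their passing again adds no support. For Unc5b and Sema7a, how much of the vascular level was free RNA that remained was not tested. Nrp1, a coreceptor for class 3 semaphorins and for vascular endothelial growth factor, was at 2.60 ± 0.415 against 1.35 ± 0.375 in neurons (0.72 ± 0.25, adjusted p = 0.015), and no longer passed without rat 1, 2 or 5 (adjusted p 0.084, 0.073 and 0.074), in DESeq2 (0.052) or after subtraction of free RNA (1.14, adjusted p = 0.070). Among the members that fell were Unc5d (-4.62 ± 0.46), Efna5 (-3.37 ± 0.43) and Dcc (-3.29 ± 0.47), while Sema3a was seen in 1 UMI, a pooled level of 0.00779 (exact 95% Poisson interval 0.000197 to 0.0434), and Sema5b in 3, a pooled level of 0.0234 (0.00482 to 0.0683). Slit2 (-3.20 ± 0.31), Plxna4 (-2.75 ± 0.30), Unc5a (-2.56 ± 0.56, 5 UMIs in vascular nuclei), Robo2 (-2.40 ± 0.37), Epha5 (-2.32 ± 0.31), Nrp2 (-2.06 ± 0.30) and Robo1 (-1.94 ± 0.33) were lower in 4 of 4 rats. Plxna2, a plexin, was at 3.67 ± 1.13 against 2.03 ± 0.680 in neurons and did not pass the test (0.46 ± 0.21, adjusted p = 0.065), nor did Sema6d (0.26 ± 0.22), Slit3 (0.15 ± 0.24), Sema3e (-0.62 ± 0.35) and Unc5c (-0.62 ± 0.31). Ntn1 and Sema5a were lower (-1.18 ± 0.27 and -1.31 ± 0.33), with -1.02 and -1.67 after subtraction of free RNA, where neither passed (adjusted p = 0.19 and 0.055). Epha4 (-0.63 ± 0.25, adjusted p = 0.031) lost its call without rat 2 or 5 (adjusted p = 0.080 and 0.20), with RLE size factors (0.081), in DESeq2 (0.20), after subtraction of free RNA (0.52) and with nuclei typed by their own markers (0.060). In these sums fewer cells expressing a gene and less RNA per cell cannot be told apart.

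Among neurons, dopaminergic-like nuclei were compared with GABAergic-like nuclei in the 4 rats that gave both. Of the 52 members tested 10 (19.2%) were higher in dopaminergic-like neurons, against 10.3% of all 11468 genes, and 11 (21.15%) were lower, against 10.7%. The median was -0.05 for the members and -0.04 for all genes. Without the rat as a block, 12 members passed in place of 21, a change not set beside that of all genes.

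Ntn1 differed most. Its level was 8.05, 5.36, 7.96 and 7.79 in dopaminergic-like neurons of rats 2 to 5 and 0.768, 0.519, 0.769 and 0.873 in GABAergic-like neurons of the same rats. Every dopaminergic-like value exceeded every GABAergic-like value, and the log2 fold change was 3.26 ± 0.17 (adjusted p = 5.5e-10). Against Slc17a6/Slc17a7 neurons, at 1.01 ± 0.503, it was 2.86 ± 0.18 (adjusted p = 7.4e-09). A Ntn1 UMI was found in 48.2% of dopaminergic-like nuclei thinned to 1000 UMIs (82.9% unthinned), in 5.66% of GABAergic-like nuclei (22.7% unthinned) and in 0.822% of oligodendrocytes (3.06% unthinned). Subtraction of free RNA gave 7.78 ± 1.55. A cluster of 1500 nuclei led by Slc6a3, Chgb and Th had a median of 3.88% mitochondrial UMIs and 1238 UMIs and was left out because glial markers were raised with the neuronal ones in it. Its Ntn1 level was 0.538. Ntn4 was higher as well, at 0.580 ± 0.201 against 0.223 ± 0.0840 (1.19 ± 0.15, adjusted p = 1.4e-05). Of the netrin receptors, Dcc stood at 21.2, 10.5, 17.0 and 17.3 in dopaminergic-like and 19.8, 10.1, 24.4 and 17.5 in GABAergic-like neurons of rats 2 to 5, a log2 fold change of -0.01 ± 0.14 (adjusted p = 0.99). Unc5a, Unc5b and Unc5c did not pass the test (-0.08 ± 0.21, -0.13 ± 0.32 and 0.09 ± 0.17), and Unc5d was lower (-1.10 ± 0.18, adjusted p = 1.9e-04).

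**Figure D3:**
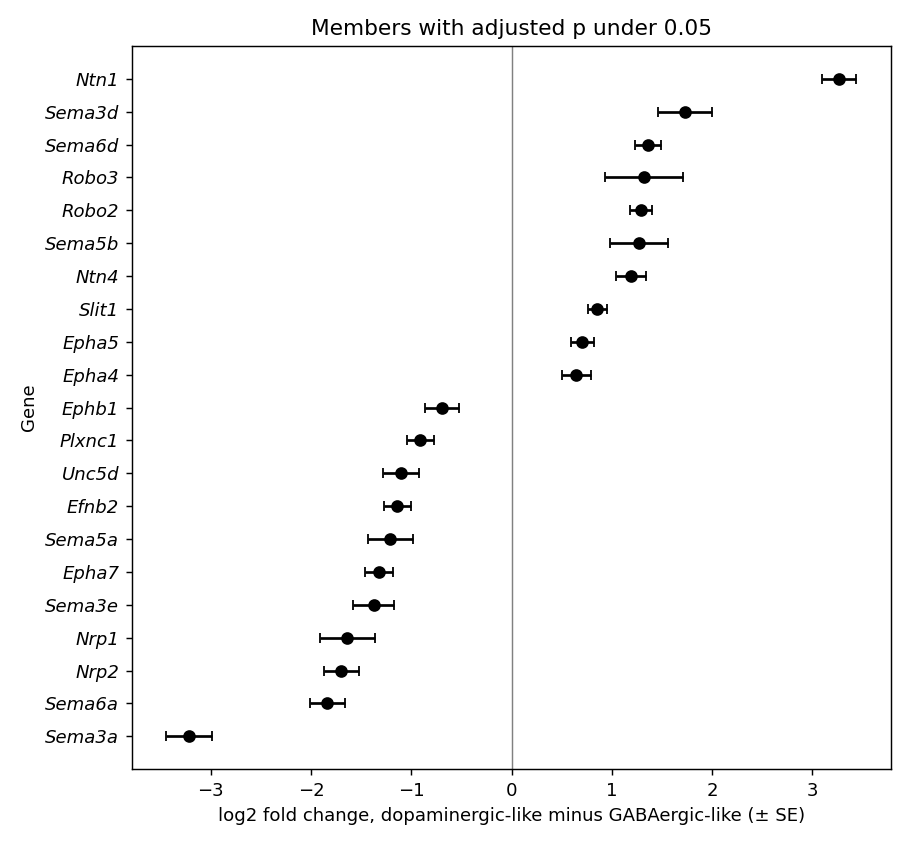
The 21 members past adjusted p 0.05 between dopaminergic-like and GABAergic-like neurons (rows), with the log2 fold change (points) and SE (whiskers). Ntn1 lies farthest to the right at 3.26 and Sema3a farthest to the left at -3.21.

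The slit receptor Robo2 was higher in dopaminergic-like neurons, at 20.689, 12.638, 21.885 and 19.993 against 7.45, 5.05, 11.6 and 7.97 in rats 2 to 5 (1.29 ± 0.11, adjusted p = 1.2e-07). Robo3 was higher in 3 of 4 rats (1.32 ± 0.39, adjusted p = 0.022). The paralogue Robo1 did not pass the test (0.18 ± 0.14, adjusted p = 0.45), nor did the ligands Slit2 (-0.38 ± 0.14, adjusted p = 0.073) and Slit3 (-0.10 ± 0.26, adjusted p = 0.84), while Slit1 was higher (0.85 ± 0.09). On the semaphorin side the neuropilins were lower. Nrp1 was at 0.441, 0.182, 0.972 and 0.540 against 1.99, 1.10, 2.06 and 1.60 (-1.64 ± 0.28, adjusted p = 2.7e-04), and Nrp2 at 0.659, 0.289, 1.13 and 0.903 against 2.82, 1.04, 2.89 and 2.45 (-1.70 ± 0.17, adjusted p = 1.3e-06). The secreted semaphorins Sema3a, a repellent that binds Nrp1, and Sema3e were lower too (-3.21 ± 0.23 and -1.37 ± 0.20). Sema3a was carried by 22 UMIs in dopaminergic-like and 463 in GABAergic-like neurons. Among the membrane semaphorins Sema6a fell by 1.84 ± 0.17 on the log2 scale and Sema5a was at 1.13 ± 0.4003 against 2.84 ± 0.719 (-1.21 ± 0.22). Sema6d, in contrast, was higher at 2.08 ± 0.530 against 0.791 ± 0.183 (1.36 ± 0.13, adjusted p = 5.5e-07). The secreted Sema3d and the membrane-bound Sema5b were also higher (1.73 ± 0.27 and 1.27 ± 0.29), at levels of 0.334 and 0.250, and the Sema3d call was lost when nuclei were typed by their own markers. Slc17a6/Slc17a7 neurons had a mean Sema3d level of 0.421. Among dopaminergic-like nuclei, a sub-cluster of 88 described below was at 2.40, against a median of 0.107 over 18 neuron sub-clusters. Its part in the class difference was not tested. Plxna4 did not differ past the threshold (-0.01 ± 0.09, adjusted p = 0.98).

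The Eph receptors were divided. Epha4 and Epha5, receptors for A-type ephrins, were higher in dopaminergic-like neurons (0.65 ± 0.14 and 0.70 ± 0.11, adjusted p = 0.0031 and 1.8e-04), and Epha7 and Ephb1 were lower (-1.32 ± 0.14 and -0.70 ± 0.17). Epha4 was at 4.33 in rat 3 and 1.76 to 2.33 in the others, and its call was lost when doublets were kept. Of the ephrins, Efnb2 was lower (-1.14 ± 0.13, adjusted p = 4.6e-06), and Efna5 did not pass the test (-0.01 ± 0.10, adjusted p = 0.97).

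Dopaminergic-like and Slc17a6/Slc17a7 neurons were compared next. In dopaminergic-like neurons 8 of the 52 members (15.4%) were higher, against 7.83% of all genes, and 10 (19.2%) were lower, against 8.35%. The medians were -0.13 for the members and -0.03 for all genes. Without the block 5 members passed in place of 18, again not set beside the change over all genes. This comparison shares its dopaminergic-like sums with the one above. The make-up of the Slc17a6/Slc17a7 class differed between rats. One sub-cluster gave 49 of its 71 nuclei in rat 1, another 139 of 328 in rat 2 and a further one 51 of 57 in rat 5. Beside Ntn1, Robo3 rose by 2.41 ± 0.55, higher in 3 of 4 rats and with 16 UMIs in Slc17a6/Slc17a7 neurons. Other members that rose in 4 of 4 rats were Ntn4 (1.33 ± 0.18), Epha4 (1.25 ± 0.16), Dcc (0.93 ± 0.15, at 16.5 ± 4.41 against 8.42 ± 2.38) and Sema6d (0.68 ± 0.14), and Robo2 rose by 0.52 ± 0.11. Sema3a (-2.98 ± 0.26), Sema7a (-1.88 ± 0.39), Sema6a (-1.78 ± 0.19), Nrp2 (-1.30 ± 0.18) and Efnb2 (-1.02 ± 0.15) were lower. Slit2 was lower here (-0.77 ± 0.15, adjusted p = 0.0011), as were Nrp1 (-1.28 ± 0.30, adjusted p = 0.0062) and Sema3e (-0.94 ± 0.22, adjusted p = 0.0064). Without rat 2 the adjusted p was 0.15 for Sema7a and 0.12 for Nrp1, and without rat 3 it was 0.066 for Sema3e. Epha5, Robo1, Plxna4, Efna5, Slit3, Sema5a and the 4 Unc5 receptors did not pass the test, with log2 fold changes between -0.70 and 0.27.

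GABAergic-like and Slc17a6/Slc17a7 neurons differed in fewer genes. In GABAergic-like neurons 6 of the 52 members (11.5%) were higher, against 3.28% of all genes, and 7 (13.5%) were lower, against 2.99%. Without the block 1 member passed in place of 13, also without the change over all genes beside it. The medians were 0.06 and 0.00 on the log2 scale for members and all genes. Sema5a (1.08 ± 0.21), Dcc (0.94 ± 0.14) and Epha7 (0.66 ± 0.13) were higher in 5 of 5 rats, and Sema3d (-1.98 ± 0.28), Robo2 (-0.76 ± 0.10), Sema6d (-0.68 ± 0.13) and Epha5 (-0.51 ± 0.11) were lower in 5 of 5 rats. Slit1 (-0.41 ± 0.09) and Sema5b (-1.66 ± 0.29) were also lower, Sema5b in 4 of 5 rats. The calls of Epha4 (0.60 ± 0.15), Sema4a (0.46 ± 0.11), Unc5d (0.61 ± 0.17) and Epha3 (-0.69 ± 0.20) were each lost without at least 2 of the rats, with adjusted p up to 0.42. With nuclei typed by their own markers the fold changes were 0.15 for Epha4 (adjusted p = 0.86), 0.18 for Sema4a (0.79) and -0.49 for Epha3 (0.37). With doublets kept Epha4 (adjusted p = 0.13) and Epha3 (0.20) did not pass, nor did Epha3 after subtraction of free RNA (0.081) or with at least 2000 UMIs (0.051), or Unc5d in DESeq2 (0.15). The Epha5 call was lost when nuclei were typed by their own markers (adjusted p = 0.099). Nrp2 (0.40 ± 0.15), Nrp1 (0.35 ± 0.24), Slit2 (-0.39 ± 0.13), Ntn1 (-0.40 ± 0.18), Unc5a (-0.62 ± 0.20, adjusted p = 0.098) and Unc5c (-0.42 ± 0.17) did not pass the test, nor did Unc5b, Slit3, Robo1, Plxna4, Efna5, Efnb2, Sema3a and Sema3e, with log2 fold changes between -0.35 and 0.43.

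The averages over a neuron class hid a wide range between sub-clusters, which are given as a description with no test. Of the sub-clusters, 18 had at least 20 nuclei in 2 or more rats, and Dcc ranged from 0.398 in a sub-cluster of 113 nuclei from rats 2 and 3 led by Rbm20, Pappa2 and Slc17a7 to 41.4 in a GABAergic-like sub-cluster of 277 nuclei led by Sox6 and Pdgfd. In the latter the 4 rats with 20 nuclei or more lay between 26.8 and 48.4. The Sox6 sub-cluster also had the highest level of Slit2 (21.2, rats from 11.6 to 26.5), Nrp2 (6.31, rats from 3.62 to 6.68) and Unc5d (6.48, rats from 2.36 to 8.77). Its Robo1 level was 0.457 (rats from 0.181 to 0.873), and it had the lowest level of Efna5 (0.0507, rats from 0 to 0.0722). A Nox4 and Meis2 sub-cluster of 173 GABAergic-like nuclei had the lowest Robo1 (0.422) and the highest Sema5a (7.66, rats from 4.18 to 10.3), and a Penk and Meis2 sub-cluster of 141 had the highest Nrp1 (4.50, rats from 4.33 to 4.58). Robo1 was highest, at 15.9, in a Pax5 sub-cluster of 98 GABAergic-like nuclei.

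Dopaminergic-like neurons were not uniform either. Ntn1 was at 8.37 in a sub-cluster of 493 nuclei led by Tmem207 and Slc6a3 and at 8.10 in one of 391 led by Aldh1a1, but at 2.86 (rats from 1.93 to 3.43) in one of 88 led by Adgrv1 and Casr. The last was classed as dopaminergic-like with 5 of 8 dopaminergic markers raised, against 8 in the other two, and none of these markers was among its leading genes. Its summed Slc17a6 and Slc17a7 level was 1.75, near the lowest values of the Slc17a6/Slc17a7 sub-clusters (1.57 and 1.81). With rats pooled, it had the highest levels of Robo2 (23.8, rats from 21.5 to 27.4), Epha5 (18.9, rats from 16.4 to 21.8) and Sema3d (2.40, rats from 2.06 to 3.16). It also had the lowest of Unc5d (0.122), and a Slit2 level of 12.7. The Robo2 range overlapped that of the unnamed sub-cluster below (rats from 13.4 to 24.1). Rat 3 gave 6 of these 88 nuclei and 213 of the 493, and whether this mix set the ranks was not tested. Nrp1 was lowest in the Slc6a3 sub-cluster, at 0.104. An unnamed sub-cluster of 255 neurons led by Slc26a7 and Npsr1 had a Ntn1 level of 4.87 (rats from 3.04 to 5.92), between these dopaminergic-like sub-clusters.

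**Figure D4:**
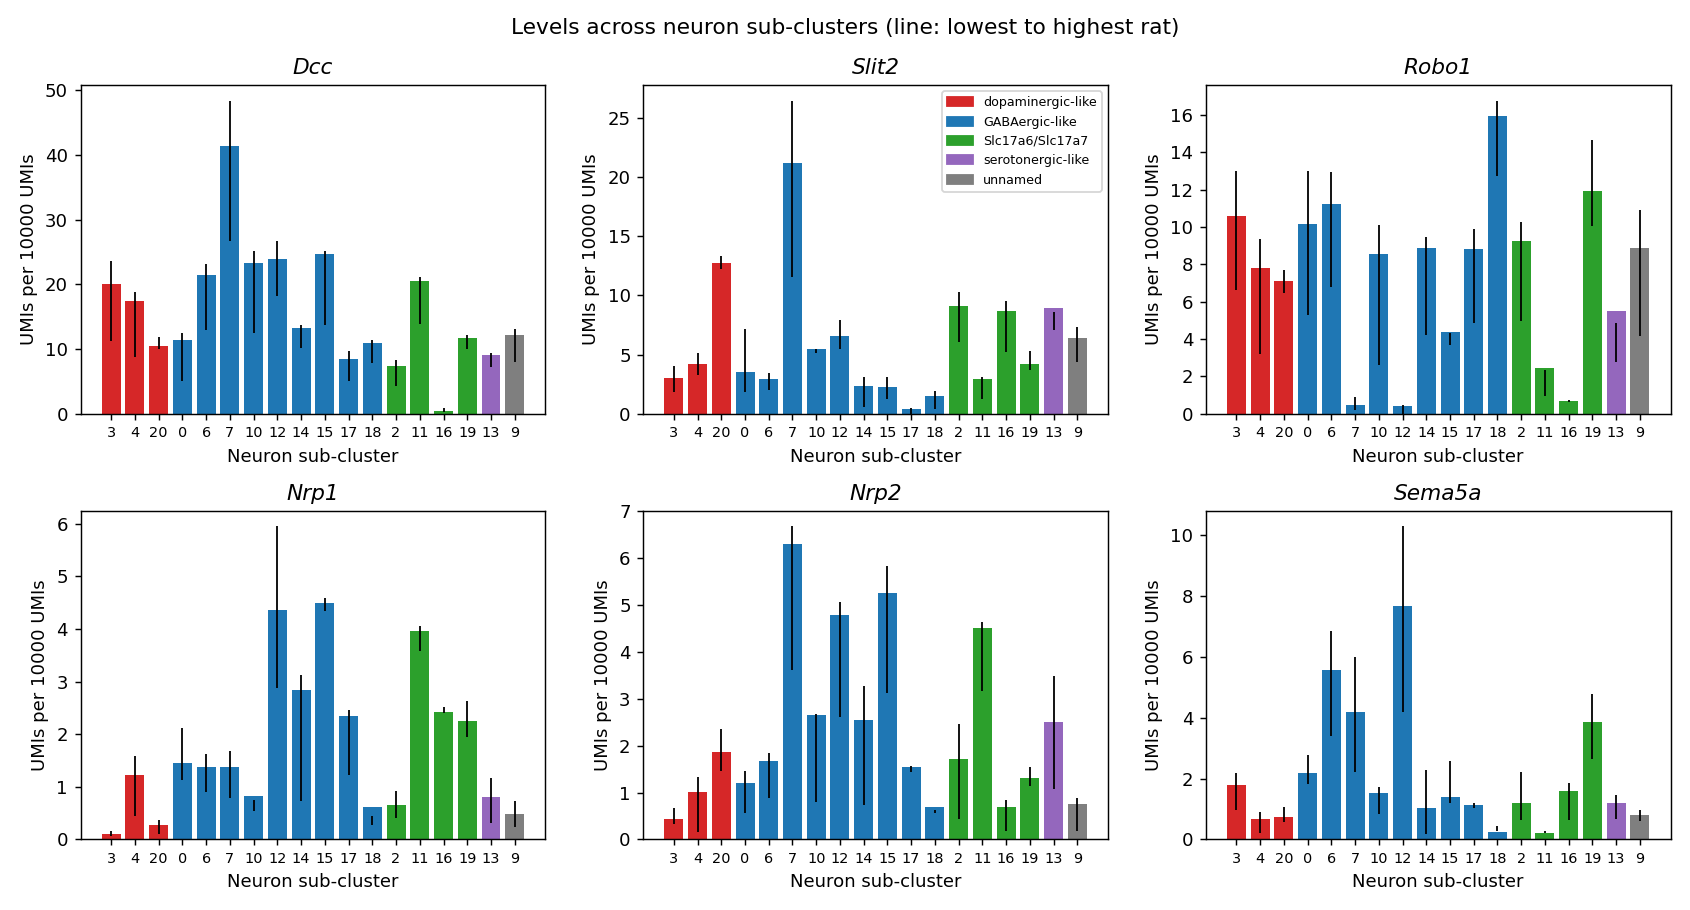
Levels of Dcc, Slit2, Robo1, Nrp1, Nrp2 and Sema5a in UMIs per 10000 UMIs in the 18 neuron sub-clusters with 20 nuclei in 2 or more rats (bars, all rats pooled, coloured by neuron class), with lines from the lowest to the highest rat with 20 nuclei or more. A pooled bar also counts rats with fewer nuclei and can lie outside its line. Sub-cluster 7, the Sox6 sub-cluster, has the tallest bars for Dcc (41.4), Slit2 (21.2) and Nrp2 (6.31) and almost none for Robo1 (0.457).

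Other genes of the guidance pathway were counted in the same fits. Of 14 other ligands and receptors 13 were tested, and of 31 intracellular effectors 27. Between dopaminergic-like and GABAergic-like neurons 2 of the 13 were higher and 5 lower, and 5 of the 27 effectors were higher and 5 lower, against 10.3% higher and 10.7% lower among all genes. Mical2, of an enzyme family that takes apart actin filaments, rose by 2.01 ± 0.12 (adjusted p = 2.8e-09), and Nrcam, an adhesion molecule that partners with neuropilins, by 1.16 ± 0.11. Ntng1 (-1.27 ± 0.20) and the guanine nucleotide exchange factor Kalrn (-0.97 ± 0.10) were lower. Between OPCs and oligodendrocytes 7 of the 13 were higher and 3 lower, and 12 of the 27 effectors were higher and 5 lower, against 23.2% and 23.1% of all genes. Dscam, a further netrin receptor, rose by 6.92 ± 0.31 in OPCs, and Trio, an exchange factor that acts downstream of Dcc, by 5.13 ± 0.27, whereas Neo1, the paralogue of Dcc, was lower (-0.93 ± 0.17). Neo1 was also higher in oligodendrocytes than in neurons (1.52 ± 0.15), where 3 of the 13 and 3 of the 27 were higher and 9 and 17 lower, against 35.3% and 34.6% of all genes.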

How the data were processed

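Single-nucleus libraries (10x Genomics 3′ chemistry, nuclear RNA) of the VTA of 5 rats were analysed. The authors deposited UMI counts per gene and barcode, 1 unfiltered matrix per rat, made with Cell Ranger (version 8.0.1 in the submitters' processing notes, while the matrix headers name an earlier release). The genome build is not given in the sources used here. Matrices held 10193355 to 88576210 UMIs.

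Nuclei were barcodes with at least 1000 UMIs, more than 200 and fewer than 5000 genes and less than 5% mitochondrial UMIs. The nuclei with the highest Scrublet scores, 0.8% per 1000 nuclei of a library, were removed as doublets (26 to 697 per rat), because the automatic threshold marked at most 10 per rat. Nuclei were clustered with scanpy 1.11.5 and leidenalg 0.10.2 on 2000 variable genes without the 70 members, and neurons were clustered again alone. Classes were named from listed markers, by scoring thresholds set after the clusters had been seen. Clusters with markers of 2 classes or with glial RNA were left out. The members and gene lists were chosen with earlier results of these data known.

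Counts were summed per rat and class and tested in R 4.3.3 with edgeR 4.0.16 (TMM, filterByExpr, glmQLFit and glmQLFTest, rat as a block), at an adjusted p of 0.05 over all genes tested. Classes of 1 rat come from the same animal, which pairs the sums. Over 1482 genes the deviations of paired classes from their class means correlated in every rat (lowest 0.173, median 0.654). In simulated data for oligodendrocytes against neurons (9961 genes) and for dopaminergic-like against GABAergic-like neurons (11212 genes), 186 of 200 changed genes were recovered each time, with 17 and 19 false calls. The changed genes were drawn from those with higher counts, with a mean absolute log2 fold change of 1.01 and 1.02. No difference between rats was simulated. The recovery therefore does not tell how often smaller changes, or members with few UMIs, would be found.

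The genes named were the 5 largest called changes in each direction with the same sign in every rat, a list of 21 receptors and ligands, and the member with the highest level in each class. Ephb3, Plxna1, Robo3, Sema3f and Sema4g, the other pathway genes with values, and any gene outside these picks in a comparison were named after their values were seen. Alternatives were DESeq2 1.42.0, RLE size factors, no filter, no block, at least 2000 UMIs, doublets kept, nuclei typed by their own markers, free RNA subtracted and each rat left out. The profile of free RNA came from barcodes with fewer than 100 UMIs, and its share was capped at 50%. In rats 2, 4 and 5, barcodes ranked far below the nuclei still held 558, 218 and 260 UMIs and were outside this profile. In rat 2 the profile rested on 1802227 of 88576210 UMIs. All results after subtraction depend on this choice, and no other cutoff was tested. Poisson intervals are at 95%, and the limit for 0 UMIs is 3 counts over the class; both cover counting error only.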

Additional observations from a re-analysis of the deposited data

Results flagged for a closer look

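In 42 groups of 4 or 5 rats, 4 had 1 rat that stood apart from the others by Dixon's test at the 95% level, which chance does in about 1 of 20 groups. In neurons, rat 3 was lowest for Robo1 (4.952 UMIs per 10000, next rat 8.323), Plxna4 (2.461, next rat 7.064) and Efna5 (0.8735, next rat 1.534). These neurons were also the shallowest, with a median of 1617 UMIs, and whether depth set these levels was not tested. In vascular nuclei, rat 1 was highest for Ephb4 (0.4570, next rat 0.255), where the class held 34 UMIs of the gene in all.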

How the results depend on the processing

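The number of members called stayed within 1.5 times its value in 113 recomputed counts and moved further in 4, and no called log2 fold change of a named gene turned its direction in the settings run. Without the replicate block, which ignores that the classes come from the same rats, 12 members were called between dopaminergic-like and GABAergic-like neurons, 5 between dopaminergic-like and Slc17a6/Slc17a7 neurons and 1 between GABAergic-like and Slc17a6/Slc17a7 neurons. Without the filter on low counts the last comparison called 22 of all 70. With 1 rat left out in turn, the called members numbered 48 to 51 for oligodendrocytes, 35 to 43 for OPCs, 38 to 43 for astrocytes, 41 to 46 for microglia and 35 to 44 for vascular nuclei, each against neurons. They numbered 33 to 37 for OPCs against oligodendrocytes, 20 to 24 for dopaminergic-like against GABAergic-like neurons, 15 to 19 for dopaminergic-like and 9 to 15 for GABAergic-like against Slc17a6/Slc17a7 neurons. These counts are not set beside those of all genes in the same setting. They therefore do not tell whether a change concerns the members or genes at large. Of the recomputed log2 fold changes of named genes 2855 stayed on their side of the threshold, 121 lost and 40 gained a call; subtraction of free RNA lost 19 and removal of the block 38. Of the recomputed levels 20 moved by more than the SD over rats: 12 after subtraction of free RNA, 5 with nuclei typed by their own markers and 3 with doublets kept. The other 344 moved by less. Among them, the levels with 1 rat left out could not have moved further. Leaving out 1 rat cannot shift a mean of 4 or 5 rats by an SD. Subtraction of free RNA raised the vascular levels of Plxnd1 to 1.70, Sema3g to 0.757, Ephb4 to 0.480 and Nrp1 to 4.10. Such levels are per 10000 of the UMIs that remained. A gene rare in the free RNA profile, such as Sema3g (0.0114) or Plxnd1 (0.0434), therefore rises by the arithmetic. With doublets kept the OPC levels were 6.41 for Ntn1, 6.92 for Sema3d and 6.67 for Sema5a. Other causes were not tested. Depth limits the genes with few UMIs in a class, such as Ephb4 with 1 UMI in OPCs and Plxnd1 with 3 in microglia.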

Other observations

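Several groups of nuclei were in no comparison. Serotonergic-like neurons, 158 nuclei led by Tph2 and Slc6a4 and summed in 2 rats, had levels of 9.49 ± 1.37 for Epha5, 8.306 for Dcc (7.245 and 9.367 in the 2 rats), 7.81 ± 1.08 for Slit2 and 0.221 ± 0.0241 for Ntn1. The unnamed sub-cluster of 255 neurons led by Slc26a7 and Npsr1, which had both dopaminergic and GABAergic markers raised, had levels of 20.5 ± 4.82 for Robo2, 11.5 ± 2.34 for Dcc and 4.60 ± 1.26 for Ntn1 over 4 rats.

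The 328 nuclei with raised OPC and oligodendrocyte markers had levels of 11.2 ± 4.65 for Sema5a, 7.45 ± 0.650 for Sema4d, 4.24 ± 0.4998 for Sema3d, 2.39 ± 0.539 for Ntn1 and 1.55 ± 0.714 for Dcc over 4 rats. The Sema4d level lay above those of OPCs (0.378 ± 0.1004) and oligodendrocytes (2.42 ± 0.506), and the Ntn1 and Sema3d levels lay between those of both classes. These differences were not tested. In the 1500 nuclei led by Slc6a3, Chgb and Th, of which 1255 came from rat 2, Dcc was at 1.03 ± 0.303 and Ntn1 at 0.538 ± 0.419 over 4 rats.

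The largest group left out, 1811 nuclei with neuron and astrocyte markers raised together and a median of 1356 UMIs, of which 904 came from rat 1, had levels of 5.61 ± 2.97 for Dcc, 5.25 ± 2.98 for Robo2, 2.79 ± 1.54 for Slit2 and 0.757 ± 0.328 for Ntn1 over 4 rats. Among neurons, 4 sub-clusters of 513, 386, 269 and 37 nuclei were left out because at least 6 of the 7 oligodendrocyte markers were raised in them. All 8 dopaminergic markers were raised in the one of 386, and 5 of 8 in the one of 513.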
